A study of Mus musculus with 6 samples.

Results

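The 6 retinal RNA-seq libraries of the series fell into 2 sets of 3 that cut across genotype. The rule was the share of deposited counts in the row for reads ambiguous between genes: libraries over 2.9% of the sum of all rows formed set A, and the others formed set B. In set A this share was 3.20% in control 2, 3.19% in cKO 1 and 3.13% in cKO 2, and in set B it was 2.65% in control 3, 2.69% in control 4 and 2.63% in cKO 3. The libraries nearest the cut were cKO 2, at 3.13%, and control 4, at 2.69%. These shares chose the sets and are given as a description.

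All 6 mice were of mixed background, mainly CD-1, and were taken at postnatal day 0.5. The 3 controls carried Lhx2 lox/lox, and the 3 conditional knockouts (cKO) carried Lhx2 lox/lox with Pdgfrα-Cre, a Cre driven by Pdgfra sequences, so cells that never made Cre keep Lhx2. In the series' own text the control mice are named wild type, although their label gives the floxed gene. Set A held 1 control and 2 cKO libraries, and set B held 2 controls and 1 cKO library. Each set held 1 male and 2 female mice by 4 Y-linked genes. Libraries numbered 1 and 2 in the titles were in set A and those numbered 3 and 4 in set B, and the labels do not say what the number stands for. The comparison below was B minus A with genotype as a term. Because the sets were picked from these libraries' own values, the test describes how far these libraries stand apart and is not a test of a planned treatment.

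The mitochondrial genome encodes a small set of respiratory chain subunits along with the ribosomal and transfer RNAs that translate them, and its messenger RNAs are made inside the organelle. Nuclear genomes carry old copies of mitochondrial DNA, so short reads from a mitochondrial gene can match the nucleus as well. Cytosolic ribosomal proteins are encoded by short, highly transcribed nuclear genes that have many processed pseudogenes. The base composition and length of a transcript affect how well it is captured, copied and aligned in RNA-seq.

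The sequences below compare mitochondrial genes with annotated nuclear copies, because mitochondrial genes and some counted copies carried some of the widest gaps between the sets. They come from GENCODE vM21 transcripts (GRCm38), are written 5′ to 3′, with positions counted from the first base of the mitochondrial gene. Capitals mark bases that differ within a pair. Of the copies shown, Gm13339 had a row in the deposited counts, and Gm28661 and Gm28438 had none. The first 60 bases of mt-Co2, a cytochrome oxidase subunit gene, and of Gm28661, an unprocessed pseudogene on chromosome 1, were identical, as were all 681 aligned bases.
mt-Co2: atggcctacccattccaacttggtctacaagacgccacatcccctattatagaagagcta
Gm28661: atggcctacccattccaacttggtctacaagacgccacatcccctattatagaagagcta
mt-Nd3, a complex I subunit gene, differed from Gm28438 at 1 of 345 aligned bases, the change T3C counted from the first base of mt-Nd3.
mt-Nd3: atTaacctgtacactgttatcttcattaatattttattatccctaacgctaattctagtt
Gm28438: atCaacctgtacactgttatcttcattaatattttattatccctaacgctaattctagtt
For mt-Nd2, another complex I gene, 17 of 510 bases aligned to Gm13339 differed, and bases 667 to 726 of mt-Nd2 hold 4 of them.
mt-Nd2: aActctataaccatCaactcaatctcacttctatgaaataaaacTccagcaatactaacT
Gm13339: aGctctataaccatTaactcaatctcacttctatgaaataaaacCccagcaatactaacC

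A second group of sequences comes from genes picked for their base composition among those with the largest differences. By GC content of annotated transcripts, Zfp975 and Ppig were the lowest of the nuclear genes in the named largest rises. Tmem160 and Hes5 were the highest of the named largest falls, so these genes show the ends and not the spread. Other named falls were nearer the middle, such as Rpl35a at 47.7% and Lars2 at 48.6%, and Cd44 among the rises was at 46.5%. Each is a stretch of 60 bases around the middle of the coding sequence, with G and C in capitals. Zfp975, a zinc finger gene, and Ppig, a peptidyl-prolyl isomerase gene, were among the largest rises in set B, and Tmem160, a transmembrane protein gene, and Hes5, a Notch target, were among the largest falls. The genes lie at chr7:42660105-42692742 (Zfp975), chr2:69722545-69754012 (Ppig), chr7:16452779-16455494 (Tmem160) and chr4:154960923-154962371 (Hes5) in GRCm38.
Zfp975: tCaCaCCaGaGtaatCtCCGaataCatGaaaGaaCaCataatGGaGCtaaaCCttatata
Ppig: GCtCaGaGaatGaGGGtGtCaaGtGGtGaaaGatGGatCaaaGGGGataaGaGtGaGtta
Tmem160: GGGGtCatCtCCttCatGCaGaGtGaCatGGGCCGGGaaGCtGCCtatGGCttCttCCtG
Hes5: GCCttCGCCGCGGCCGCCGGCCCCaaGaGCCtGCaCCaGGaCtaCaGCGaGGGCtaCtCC
G and C made up 21 of 60 bases in Zfp975, 27 in Ppig, 35 in Tmem160 and 44 in Hes5. Over the whole coding sequence the GC content was 37.84% in Zfp975, 41.71% in Ppig, 67.38% in Tmem160 and 67.07% in Hes5.

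Depth differed between the sets: the set A libraries held 43854446 to 66947478 gene counts and those of set B 31483170 to 35813377. Reads were seen on 21517 to 22889 genes in set A against 20248 to 20566 in set B. The share of the 10 genes with most counts ranged from 3.71 to 4.29% in set A and from 7.97 to 10.2% in set B. Reads outside genes were 5.89 to 8.04% of all deposited counts in set A against 8.41 to 9.08% in set B, while the ranges for reads aligned more than once, 16.6 to 17.5% against 16.1 to 16.9%, overlapped. Pax6, an eye field factor, was between 783 and 1548 CPM (gene counts scaled to a common library total) and Crx, a photoreceptor precursor factor named after its values were seen, between 353 and 468 CPM in the 6 retinal libraries. Lhx2, the targeted gene, measured 399, 252 and 287 CPM in control 2, cKO 1 and cKO 2 against 266, 258 and 224 CPM in control 3, control 4 and cKO 3, so the genotypes overlapped, and counts over the whole gene do not read the deleted part alone. Its log2 set difference was -0.44 (SE 0.10), and without control 2, the highest library, it was -0.27 and not past the test.

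**Figure D1:**
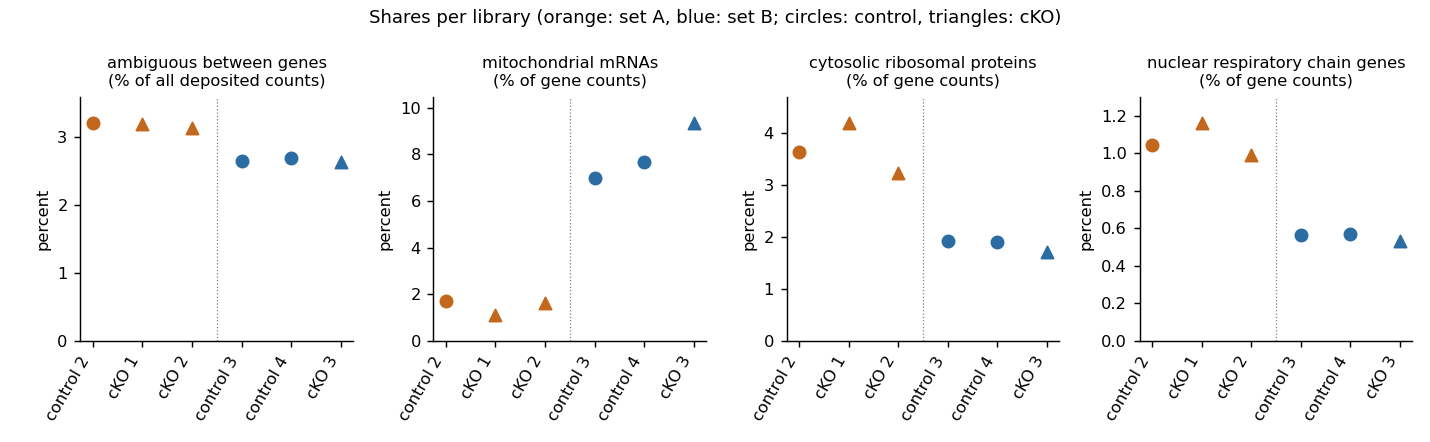
Share of counts in each library (percent, axes from 0) for reads ambiguous between genes, mitochondrial mRNAs, cytosolic ribosomal protein genes and nuclear respiratory chain genes, with set A in orange and set B in blue. The ambiguous share formed the sets, and in the other 3 panels no library of one set lies within the range of the other set.

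Of 16691 genes tested, 10637 (63.7%) were called different between the sets by edgeR, with a Benjamini-Hochberg threshold of 0.05. The genes higher in set B numbered 5431 (32.5%) and the genes lower in set B 5206 (31.2%). With no scaling beyond total counts the split was 4261 and 6441, and the median over all genes tested moved from 0.02 to -0.18 on the log2 scale. The sizes were broad: 2307 called genes were higher and 2103 lower by more than 1 log2 unit. Gene by gene, all 3 set B libraries were above all 3 set A libraries for 5433 genes (32.6%) and below them for 5282 (31.6%).

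The set difference was present in both genotypes. Controls 3 and 4 against control 2, and cKO 3 against cKO 1 and 2, share no library. Across the 16691 genes the differences from these separate comparisons had Pearson's r of 0.78 and Spearman's rho of 0.85, given as a description because genes are not independent replicates and the libraries share depth and set. The direction was the same in both genotypes for 87.1% of all genes tested. A difference between the genotypes passed the test of the interaction for 4 genes (0.024%), with 704 genes at an unadjusted p under 0.05. Only 2 residual degrees of freedom were left in that test, and DESeq2 called 35 genes.

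**Figure D2:**
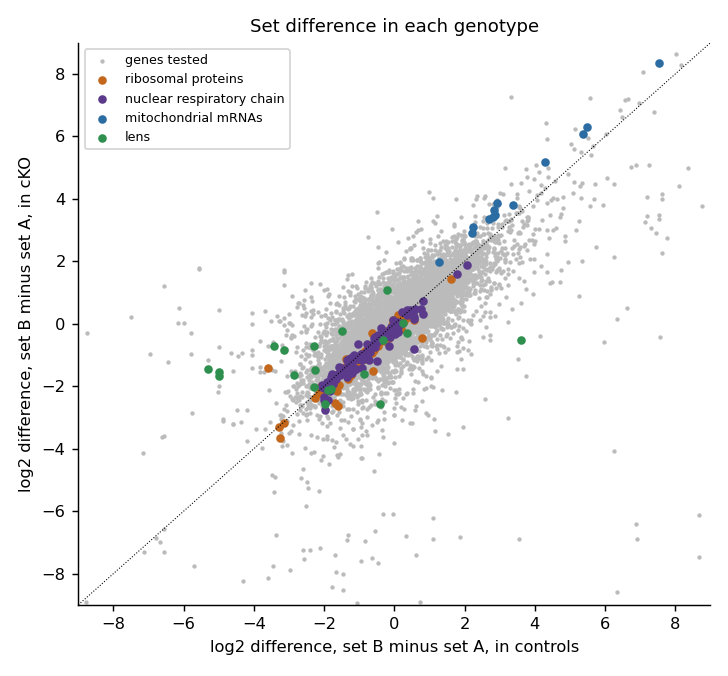
Each point is a gene tested: the log2 difference of set B minus set A among controls (horizontal axis) against that among cKO libraries (vertical axis), with 4 gene groups in colour and the dotted line marking equal values. 9 genes lie outside the axes. Mitochondrial mRNAs lie at the upper right and most ribosomal protein genes at the lower left.

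Mitochondrial messenger RNAs were higher in set B. All 13 mitochondrial mRNAs were called higher, beside 32.5% of all genes tested. Their median log2 difference was 3.29 against 0.02 for all genes tested, and all 13 had every set B library above every set A library. They summed to 16946 CPM in control 2, 10956 in cKO 1 and 16300 in cKO 2, against 69723 in control 3, 76513 in control 4 and 93511 in cKO 3. The median was 2.87 among controls and 3.65 among cKO libraries. All 13 remained called higher when any 1 library was left out.

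mt-Cytb, the only mitochondrially encoded subunit of complex III, was at 2790, 1761 and 2636 CPM in control 2, cKO 1 and cKO 2, and at 18569, 20675 and 23249 CPM in control 3, control 4 and cKO 3. Its log2 difference was 3.11 (SE 0.19), and the sets did not overlap. mt-Nd1, of complex I, was at 3313, 2140 and 3283 CPM in the same set A libraries and at 14571, 16188 and 20185 CPM in those of set B, a log2 difference of 2.56 (SE 0.20). The smallest rise of an mRNA was that of mt-Co1, which encodes the catalytic core of cytochrome oxidase: 5430, 3293 and 4626 CPM in set A became 12060, 14180 and 15676 CPM in set B, a log2 difference of 1.63. The mitochondrial ribosomal RNAs moved less, with log2 differences of 1.45 for mt-Rnr1 and 1.28 for mt-Rnr2. The 1 mitochondrial tRNA gene with enough reads to test, mt-Tp, was at 1.87.

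The 6 neighbouring genes from mt-Co2 to mt-Nd4l, at chrM:7013-10173, had lower levels per kilobase than the other mRNAs in both sets, and wider gaps except in mt-Nd3, with a median log2 difference of 5.29 against 3.02 for the other 7 mRNAs. Per kilobase of gene, mt-Co2 was at 9.30, 5.48 and 10.04 CPM in set A and at 221, 142 and 281 CPM in set B, whereas mt-Nd1 per kilobase was at 2236 to 3462 CPM in set A and at 15226 to 21092 CPM in set B. mt-Atp8, an ATP synthase subunit gene, had 19, 13 and 30 reads in control 2, cKO 1 and cKO 2, and 3032, 1951 and 3230 reads in control 3, control 4 and cKO 3. That was a log2 difference of 8.09 (SE 0.24). mt-Atp6, the neighbouring ATP synthase gene whose start overlaps the end of mt-Atp8, had a log2 difference of 5.94, and mt-Nd4l, of complex I, one of 5.82.

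Of these 6 genes, 5 share nearly all of their sequence with annotated transcripts of the nuclear copy region on chromosome 1. Every distinct 50-base word of mt-Co2 was also found in another annotated transcript, and the share was 99.5% for mt-Atp6, 99.9% for mt-Co3, 98.0% for mt-Nd3 and 98.8% for mt-Nd4l. It was 0 for mt-Atp8, and also 0 for mt-Nd1, mt-Nd6 and mt-Cytb. The search covered annotated transcripts alone, so a share of 0 does not mean that a gene has no nuclear copy. On the mitochondrial genome mt-Atp8 follows mt-Co2 and overlaps mt-Atp6, which both have annotated copies. Reads aligned more than once were set apart and not counted on genes, so counts of genes with identical copies hold only part of their reads; its part in the set difference was not tested.

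**Figure D3:**
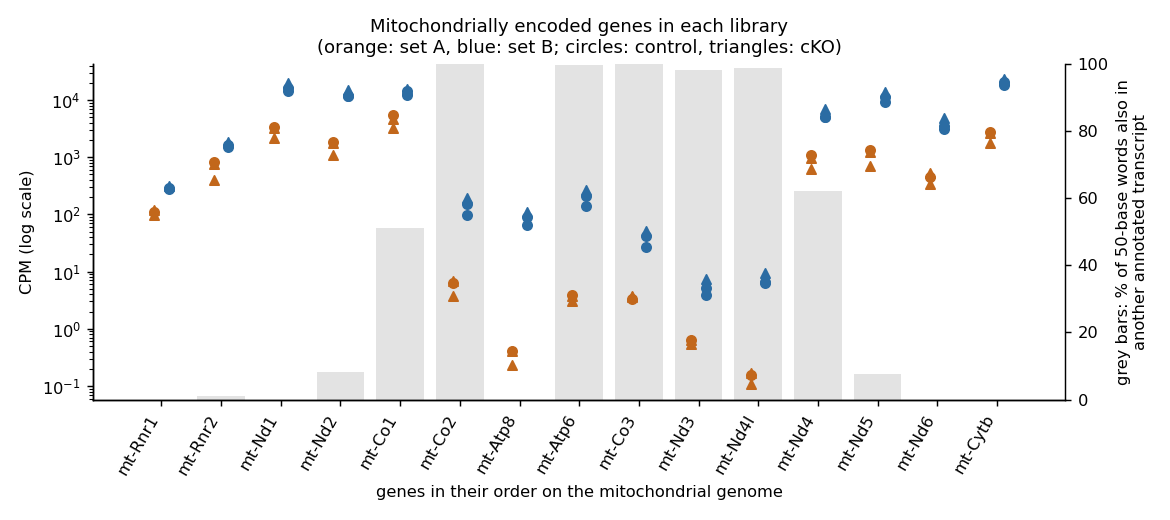
CPM (log scale) of the 2 ribosomal RNAs and 13 mRNAs of the mitochondrial genome in each library, in genome order, with set A in orange and set B in blue, and grey bars for the percent of 50-base words shared with another annotated transcript. The 6 genes from mt-Co2 to mt-Nd4l lie lowest in both sets, and 5 of them, all but mt-Nd3, have the widest gaps between sets.

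Other annotated genes that share 50-base words with mitochondrial genes numbered 8 among the gene rows. Of these 6 had enough reads to test, and all 6 were called higher in set B, beside 32.5% of all genes tested. The other two, Gm11512 and Gm20594, had at most 42 and 7 reads in a library. Gm10222, which is identical to mt-Nd4l over 294 aligned bases, was at 1.40, 0.57 and 0.86 CPM in set A and at 33.6, 23.5 and 43.7 CPM in set B. Gm13339, the partner of mt-Nd2 at chr2:22590024-22590533, had 21, 27 and 33 reads in set A and 1877, 967 and 1980 reads in set B. Gm13340, a partner of mt-Co1, had 46, 117 and 61 reads in set A and 3473, 2268 and 4164 in set B. These 3 copies had every set B library above every set A library, and all 3 were chosen after their values were seen. The origin of the reads on these copies was not tested.

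Cytosolic ribosomal protein genes were mostly lower in set B. Of 85 tested, 68 were lower, 1 was higher and 16 were not called, with a median log2 difference of -0.998 against 0.02 for all genes tested. Among all genes tested 31.2% were lower and 32.5% higher. The sums below are of the ribosomal protein genes. They summed to 36472, 42005 and 32384 CPM in control 2, cKO 1 and cKO 2, and to 19234, 19064 and 17198 CPM in control 3, control 4 and cKO 3. Leaving out 1 library at a time gave 60 to 71 lower and 1 to 6 higher, the count of 6 coming without cKO 1. The median was -0.94 among controls and -1.11 among cKO libraries.

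Rpl8, of the large subunit, was at 856, 866 and 728 CPM in set A and at 199.5, 199.4 and 199.8 CPM in set B, a log2 difference of -2.05 (SE 0.10). Rplp0, a stalk protein of the large subunit, fell from 1490, 1265 and 1171 CPM to 577, 607 and 482 CPM. Rps14, of the small subunit, had the largest fall of the list, from 524, 817 and 455 CPM to 48.7, 59.8 and 50.7 CPM. In each of these genes the sets were separate. Other abundant members did not follow: Rpl4 had a log2 difference of -0.06 (SE 0.09) and Rps24 one of 0.01 (SE 0.14), neither past the test. Rpl23, the 1 member called higher, rose from 421, 485 and 385 CPM to 1342, 1208 and 1164 CPM.

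Other nuclear genes for mitochondrial function and protein turnover were also mostly lower. Among nuclear respiratory chain genes 69 of 94 were lower and 12 higher, with a median of -0.95. The shares of all genes tested were 31.2% lower and 32.5% higher. Without scaling 71 respiratory chain genes were lower and 4 higher, and without control 2 the count higher was 6. Ndufb8, a complex I subunit gene, was at 70.0, 72.7 and 62.8 CPM in set A and at 16.7, 16.7 and 16.5 CPM in set B. Ndufs5, another complex I gene, went the other way, from 34.3, 38.8 and 32.6 CPM to 140.8, 145.6 and 132.8 CPM. Most nuclear genes of the respiratory chain were thus lower in set B, where its mitochondrial genes were higher.

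The counts of the next lists stand beside shares of 31.2% lower and 32.5% higher among all genes tested. Mitochondrial ribosomal protein genes were lower for 48 of 76 and higher for 11, with a median of -0.53. Proteasome subunit genes were lower for 25 of 36 and higher for 3, with a median of -0.56. Psmb4, a core subunit gene, fell from 185, 228 and 169 CPM to 44.2, 51.8 and 49.9 CPM. Genes of glycolysis and the TCA cycle were lower for 19 of 30 and higher for 3, and Mdh2, mitochondrial malate dehydrogenase, fell from 284, 271 and 271 CPM to 99.8, 96.8 and 97.6 CPM. Translation factor genes were mixed, with 26 of 64 lower (40.6%) and 19 higher (29.7%), or 33 and 13 without scaling. So were spliceosome genes, with 19 of 57 lower (33.3%) and 23 higher (40.4%), or 25 lower and 15 higher without scaling. Eif3a, of the initiation factor that loads the small ribosomal subunit, rose by a log2 difference of 1.59, while Eif3f of the same factor fell by 1.53.

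Among listed long noncoding RNA genes 7 of 9 were higher and none was lower, with 5 higher without scaling. Among all genes tested 32.5% were higher and 31.2% lower. Snhg11, in this list and called higher, is annotated as protein-coding, and the sets were not separate in Rian, also called higher. Malat1, a nuclear speckle RNA, rose from 121, 189 and 164 CPM to 853, 890 and 674 CPM. Meg3, an imprinted RNA, rose from 311, 559 and 418 CPM to 1265, 1530 and 1629 CPM. Zinc finger genes named Zfp, many of which repress transposable elements, were higher for 217 of 356 and lower for 47, with a median of 0.59. Clustered histone genes, most of whose mRNAs lack a poly(A) tail, were lower for 13 of 24 and higher for 1 (2 without cKO 1), with a median of -1.48.

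The set difference varied with base composition. Genes were split into 5 equal groups, here quintiles, by the GC content of their annotated transcripts, with limits at 44.67, 48.38, 52.09 and 55.72%. From the lowest to the highest quintile the median log2 difference was 0.70, 0.37, 0.04, -0.36 and -0.67. In the lowest quintile 2136 of 3301 genes were higher and 242 lower, with 147 lower without control 2 and 1823 higher and 378 lower without scaling. In the highest quintile 232 of 3301 were higher and 2009 lower, or 142 and 2286 without scaling. The shares of all genes tested were 32.5% higher and 31.2% lower. Across 16502 genes Spearman's rho with GC content was -0.53, and it was -0.51 among controls and -0.52 among cKO libraries; these are descriptions over genes that share libraries.

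Every library showed its set's pattern. In the lowest GC quintile the median log2 CPM relative to the mean of all 6 libraries was -0.32, -0.40 and -0.31 in control 2, cKO 1 and cKO 2, and 0.36, 0.33 and 0.35 in control 3, control 4 and cKO 3. In the highest quintile it was 0.31, 0.43 and 0.33 in set A and -0.37, -0.34 and -0.30 in set B. Exonic length showed a weaker relation: from the shortest to the longest quintile the median difference was -0.24, -0.30, -0.09, 0.11 and 0.47, with a rho of 0.25, or 0.37 among protein-coding genes. The longer genes were also lower in GC content, with a median of 47.4% in the longest quintile against 51.8% in the shortest. Within the lowest GC quintile the medians showed no steady rise with length: 0.77, 0.56, 0.54, 0.61 and 0.85 from the shortest to the longest quintile. The share called higher there did rise, from 48.2% in the shortest to 80.8% in the longest, and the share called lower fell from 12.5 to 3.3%. In GC quintiles 2, 3 and 4 the median was 0.15, -0.05 and -0.47 in the shortest genes. In the longest genes of these quintiles it was 0.56, 0.31 and -0.13. Within the highest GC quintile they rose from -0.87 in the shortest to -0.22 in the longest.

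**Figure D4:**
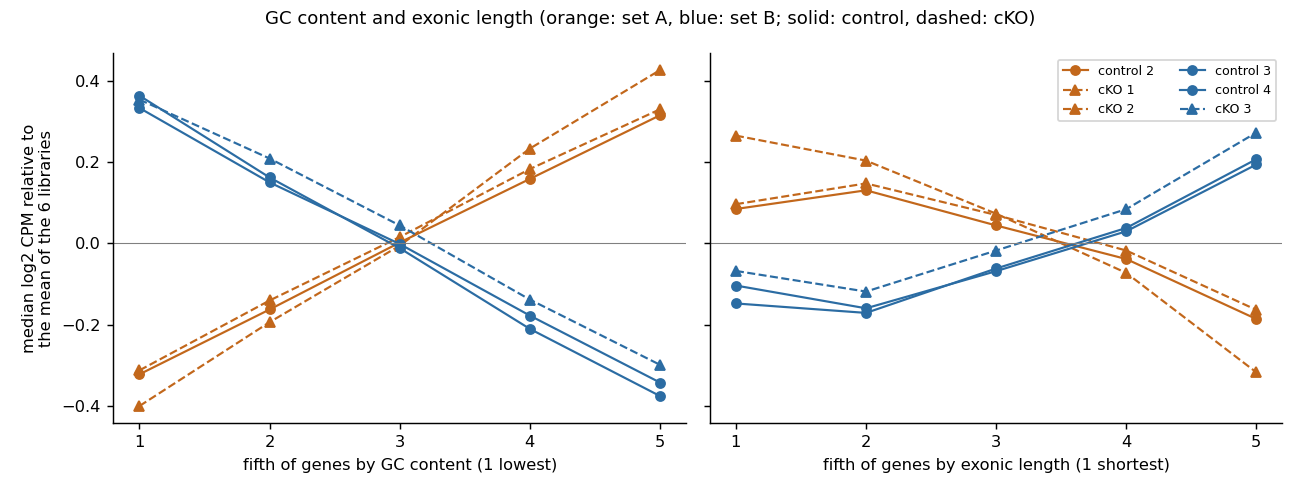
Median log2 CPM of each library relative to the mean of the 6 libraries, for quintiles of genes by GC content (left) and by exonic length (right), with 1 line per library. Set A (orange) and set B (blue) run in opposite directions and cross near the middle quintile by GC content and just beyond it by length.

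GC content did not line up with every class. Ribosomal protein genes had a median GC content of 51.8%, close to the 50.2% of all genes tested. Within each GC quintile their median lay below that of all genes: -0.91 against 0.70 in the lowest quintile (5 genes), -0.97 against 0.37 (17 genes), -0.86 against 0.04 (25 genes), -1.14 against -0.36 (23 genes) and -1.29 against -0.67 in the highest (15 genes). Zinc finger genes lay above all genes in each quintile: their medians were 0.96 against 0.70, 0.76 against 0.37, 0.40 against 0.04, 0.24 against -0.36 and -0.39 against -0.67. The lists were not tested against each other. Nuclear chromosomes ranged from a median of -0.25 on chromosome 17 to 0.35 on the X, where the median GC content was 53.2% and 46.0%.

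Counts by annotated biotype stand beside shares of 32.5% higher and 31.2% lower among all genes tested. Protein-coding genes had a median of -0.02, with 4696 of 14451 higher and 4865 lower, shares near those of all genes. Without scaling the counts were 3636 and 6007. Processed pseudogenes had a median of 0.82, with 300 of 650 higher and 118 lower (74 without control 2), beside a median of 0.02 for all genes tested. All rows of this biotype, tested or not, summed to 3821, 3746 and 3455 CPM in control 2, cKO 1 and cKO 2. In control 3, control 4 and cKO 3 they summed to 3269, 3241 and 3317 CPM. Among unprocessed pseudogenes 16 of 35 were higher and none lower, and among snRNA genes 8 of 17 were higher and none lower; without scaling 14 and 4 of the former, and 7 and 1 of the latter, were higher and lower. LincRNA genes were higher for 108 of 351 (30.8%), near the share of all genes, and lower for 45 (12.8%), or 84 and 56 without scaling. SnoRNA genes were split, with 15 of 73 higher and 14 lower, or 14 and 20 without scaling; 6 were lower without cKO 1, 7 without control 2 and 8 without cKO 3. Rps2-ps13, a processed pseudogene chosen after its values were seen, was at 0.28, 0.20 and 0.28 CPM in set A and at 83.9, 79.3 and 76.2 CPM in set B. Of its 50-base words 89.8% were in another annotated transcript. It does not stand for its kind: of 62 tested pseudogenes named after a ribosomal protein gene, 21 were higher and 13 lower, with a median of 0.42. All rows so named summed to 656, 657 and 605 CPM in control 2, cKO 1 and cKO 2. The sums were 339, 477 and 527 CPM in control 3, control 4 and cKO 3.

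Genes whose exons overlap those of another gene, where a read can be ambiguous, had a median close to that of the rest. It was 0.03 for 6002 genes with exonic overlap and 0.02 for 10507 without. The 350 genes with over 0.5 of their exonic bases in an overlap had a median of -0.07.

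Among named nuclear genes with a mean of at least 5 CPM the largest rises in set B were those of Cd44, a hyaluronan receptor of glia, Rag1, a recombinase gene of lymphocytes, and Senp8, a NEDD8 protease gene. Cd44 was at 3.78, 2.89 and 3.58 CPM in control 2, cKO 1 and cKO 2, and at 90.7, 45.8 and 71.5 CPM in control 3, control 4 and cKO 3, a log2 difference of 4.33 (SE 0.26). Ppig was at 97.8, 89.9 and 91.2 CPM in set A and at 783, 742 and 655 CPM in set B. Kmt2e, a chromatin regulator, rose from 99.2, 82.4 and 98.0 CPM to 655, 660 and 656 CPM. The sets were separate in each, and the set B values of Kmt2e differed by less than those of Cd44.

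Among the largest falls, evenness within the sets varied. Rpl34, a ribosomal protein gene, was at 215, 241 and 188 CPM in control 2, cKO 1 and cKO 2. In control 3, control 4 and cKO 3 it was at 23.3, 25.5 and 23.5 CPM. Lars2, mitochondrial leucyl-tRNA synthetase, was at 356, 1890 and 525 CPM in set A and at 58.0, 58.5 and 47.9 CPM in set B. Its log2 difference of -3.63 became -2.59 without cKO 3 and -4.66 without control 2. Crym, a thyroid hormone binding protein expressed in glia, was at 177, 71.2 and 80.4 CPM in set A and at 6.58, 49.96 and 2.49 CPM in set B, and control 4 lay near set A. Hes5, a Notch target of progenitors, fell from 97.3, 138 and 83.8 CPM to 18.9, 25.5 and 14.2 CPM. Tmem160 fell from 14.4, 21.3 and 13.1 CPM to 2.12, 3.18 and 2.69 CPM.

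Most marker lists of retinal cells held members called in both directions, and their counts stand beside shares of 32.5% higher and 31.2% lower among all genes tested. In bulk tissue fewer cells of a type and less RNA per cell cannot be told apart. Retinal ganglion cell markers were higher for 13 of 18 and lower for 4, with a median of 0.62. Without cKO 3 the count higher was 9. Their summed level did not rise: it was 3157, 4911 and 4685 CPM in control 2, cKO 1 and cKO 2. In control 3, control 4 and cKO 3 it was 2745, 2651 and 4558 CPM, lower in set B within each genotype. Elavl4, a neuronal RNA-binding protein gene, rose by a log2 difference of 1.48, and Tubb3, a neuronal tubulin gene, fell by 1.04. Progenitor markers were higher for 7 of 18 and lower for 8 (3 without control 2), or 5 and 9 without scaling: Six3, an eye field factor, rose from 295, 279 and 277 CPM to 950, 843 and 877 CPM while Hes5 fell.

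Photoreceptor markers were lower for 10 of 20 and higher for 4. Neurod1, a photoreceptor and amacrine factor, rose from 233, 214 and 218 CPM to 826, 797 and 577 CPM. Amacrine markers were higher for 5 of 15 and lower for 5, and Müller glia markers for 6 of 17 each way, shares near those of all genes tested. Their summed levels did differ. Amacrine markers summed to 2063, 2122 and 2148 CPM in control 2, cKO 1 and cKO 2. In control 3, control 4 and cKO 3 the amacrine sum was 2989, 3219 and 3193 CPM. Müller glia markers summed to 4082, 4109 and 4222 CPM in the same set A libraries and to 3026, 2829 and 2936 CPM in those of set B. Without scaling 5 Müller glia markers were higher and 8 lower. The called ones included Sox9, a glial and progenitor factor, with a log2 difference of 1.57, and Vim, an intermediate filament gene, with one of -0.88. Bipolar markers were higher for 2 of 9 and lower for 1, or 1 and 2 without scaling. Without cKO 3 none was higher and 2 were lower, and without any 1 of control 2, control 3, control 4 and cKO 2 none was lower. Horizontal cell markers were higher for 5 of 8 and lower for 2 (4 and 1 without control 2), and synaptic genes for 10 of 20 and 5.

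Markers of cells outside the neural retina moved in part with the set. The shares of all genes tested were 32.5% higher and 31.2% lower. Microglia and macrophage markers were lower for 10 of 15 and higher for 2, with a median of -1.24; without cKO 3 the counts were 7 and 1. They summed to 72.8, 157 and 144 CPM in control 2, cKO 1 and cKO 2, and to 35.9, 34.2 and 80.6 CPM in control 3, control 4 and cKO 3, so the summed level of cKO 3 lay above that of control 2. P2ry12, a microglial receptor gene chosen after its values were seen, was among the 2 called higher. Endothelial and mural markers were higher for 6 of 19 (31.6%), near the share of all genes tested, and lower for 2 (10.5%). Without cKO 3 the counts were 2 and 3, without control 2 they were 6 and 0, and without scaling 4 and 3. Astrocyte markers were higher for 4 of 9 and lower for 2 (1 without control 2). Pigment epithelium markers were higher for 3 of 13 and lower for 4, or 2 and 5 without scaling, and 1 was lower without control 2. Muscle markers were higher for 5 of 13 and lower for 2, or 4 and 3 without scaling, and 2 were higher without cKO 3. Fibroblast markers were higher for 1 of 13 and lower for 4, with 1 lower without control 2, 7 without cKO 1 and 8 without cKO 3. Of 5 blood genes none was called (2 lower without scaling or without cKO 3), and of 8 surface epithelium genes 3 were lower (1 without control 2). The part of these cells in the results was not tested.

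Lens genes were lower for 13 of 20 and higher for 1, beside 31.2% lower and 32.5% higher among all genes tested. These lens genes had nearly all of their counts in the cKO libraries. They summed to 8.4 CPM in control 2 and to 3.6 and 4.3 CPM in controls 3 and 4, against 2778 and 2857 CPM in cKO 1 and 2 and 922 CPM in cKO 3. Crybb1, a lens crystallin gene, was at 245 and 219 CPM in cKO 1 and 2, at 39.2 CPM in cKO 3 and at no more than 0.50 CPM in any control. Without cKO 3, 10 were lower and none higher. The part of lens tissue in other results was not tested.

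Lists of cell state are given beside the same shares of all genes tested, 32.5% higher and 31.2% lower. Cell cycle genes were lower for 14 of 26 and higher for 5: Cdt1, a replication licensing factor, fell by 1.93 and Ccne2, a G1/S cyclin, rose by 1.25 on the log2 scale. Heat shock and stress genes were higher for 7 of 21 and lower for 9, hypoxia genes for 7 of 17 and 4, immediate early genes for 5 of 23 and 7, and p53 and apoptosis genes for 3 of 15 and 7. Without scaling hypoxia genes were higher for 2 and lower for 6, immediate early genes for 5 and 13, heat shock genes for 5 and 11 and p53 genes for 1 and 8. Without any 1 control 3 hypoxia genes were higher, and 3 immediate early genes were lower without control 2 and 4 without cKO 3. Protocadherin genes were higher for 12 of 23 and lower for 3, without cKO 3 for 6 and 2, and without control 2 for 11 and 0. Their summed level did not follow these calls. It was 740, 733 and 851 CPM in control 2, cKO 1 and cKO 2, and 587, 550 and 763 CPM in control 3, control 4 and cKO 3. The sum was thus lower in set B among controls, and cKO 3 lay between cKO 1 and cKO 2.

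Genes often used as internal references did not move together. Of 16 such genes 10 were lower and 3 higher in set B, beside 31.2% lower and 32.5% higher among all genes tested. Their median was -0.69, and they summed to between 20430 and 21253 CPM in set A against 9260 to 9419 CPM in set B. Gapdh, a glycolytic enzyme gene, fell from 1084, 881 and 1056 CPM to 451, 435 and 398 CPM. Actb, cytoplasmic actin, had a log2 difference of -1.21. Tbp, the TATA-binding protein gene, rose from 42.7, 40.4 and 42.0 CPM to 111, 111 and 98.5 CPM, and Hprt, a purine salvage enzyme gene, had a difference of -0.14 (SE 0.10), not past the test. Actb and Hprt were named after their values were seen.

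**Figure D5:**
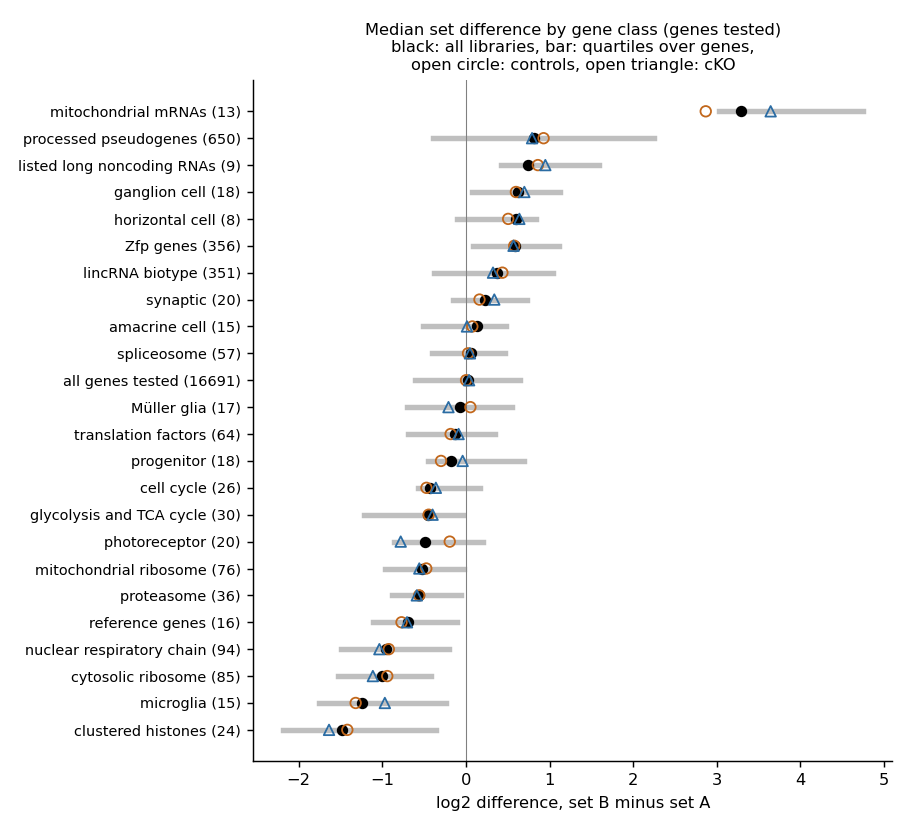
Median log2 difference (set B minus set A) of gene classes, with the number of genes tested in brackets, quartiles over genes as grey bars, and medians among controls and among cKO libraries as open symbols. Mitochondrial mRNAs lie at 3.29, ribosomal protein genes at -0.998 and clustered histones at -1.48, against 0.02 for all genes tested.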

How the data were processed

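For each library the authors deposited 1 table of raw counts, whole numbers of reads for each Ensembl gene. The submitters' processing notes name STAR, HTSeq and edgeR as tools and GRCm38 as build, without versions. Whether counting used strand was not stated in these sources, so overlapping and antisense genes cannot be assigned with certainty. TruSeq RNA reagents served for library preparation, per the labels' protocols. Each file held 39179 gene rows and 5 rows naming no gene, which stayed out of library sizes and tests; among them, reads outside genes took 5.89 to 9.08% and reads aligned more than once 16.1 to 17.5% of all rows. Labels do not state how animals were processed, so p-values measure the spread between these samples, which may be technical.

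The set comparison used edgeR 4.0.16 under R 4.3.3. Low genes were dropped by filterByExpr on genotype, TMM gave the scaling of libraries, and the quasi-likelihood test (glmQLFit, glmQLFTest) had genotype and set as terms. P-values were adjusted by Benjamini-Hochberg over all 16691 genes tested, with a threshold of 0.05. The fit was tested on simulated data. CPM of single genes is TMM-scaled, and summed CPM of lists is not. Alternatives used DESeq2 1.42.0 and limma 3.58.1, other scalings, filters, terms and thresholds, and each library left out.

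Symbols, lengths, GC content and shared 50-base words came from GENCODE vM21, which matched 37693 of the gene rows (96.2%). GC content was that of all annotated transcripts of a gene pooled, and of the longest transcript as an alternative. Sex was read as male where 4 Y-linked genes summed to over 10 CPM.

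The sets, members and lists were chosen with earlier results of these data known. The name pattern for ribosomal proteins had also caught 11 genes for S6 kinases and Rps19bp1, which were taken out after the values were seen; with them 74 of 96 were lower and 4 higher, with a median of -0.98. Genes were named by rule: mitochondrial mRNAs and rRNAs, the most abundant ribosomal protein genes, up to 15 largest rises and 15 largest falls with mean CPM of at least 5, separate sets and no placeholder name, up to 4 list members of smallest p, members of lists of 12 or fewer, interaction genes and Lhx2. The shared words, the split of the mitochondrial mRNAs, the sex term for single genes and the alternatives for gene classes were chosen after the data were seen.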

Additional observations from a re-analysis of the deposited data

Results flagged for a closer look

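For 4 genes the set difference itself differed between the genotypes in the test of the interaction. For Epha8, an ephrin receptor gene, the set difference in cKO minus that in controls was -1.81 (edgeR adjusted p = 0.0173): it was at 108, 103 and 106 CPM in controls 2, 3 and 4, at 189 and 176 CPM in cKO 1 and 2, and at 50.3 CPM in cKO 3. The other 3 genes were near 0 in control 2 and in cKO 3, each the only library of its genotype in its set. Zfp979, with a value of -14.9, was at 0.02 CPM in control 2 and 0 in cKO 3, and between 1.07 and 2.39 CPM in the other libraries. Zfp984, with a value of -10.3, was at 0.09 and 0.14 CPM in these libraries and between 2.23 and 7.33 CPM in the others. Gm26809, with a value of -13.8, was at 0.04 and 0.03 CPM and between 3.98 and 5.86 CPM in the others. The fitted values of these 3 genes depend on the prior count and are no bounds.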

How the results depend on the processing

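No paired analysis was possible because sets A and B share no label numbers (1 and 2 against 3 and 4). Requiring a log2 difference over 1 left 2307 genes higher in set B and 2103 genes lower in set B. Leaving out 1 library gave 4267 to 5423 genes higher in set B and 4073 to 5300 genes lower in set B. The median set difference of mitochondrial mRNAs was 2.87 in control libraries alone and 3.65 in cKO libraries alone, and 2.89 to 3.64 with 1 library left out, the ends coming without cKO 3 and without control 2. The median set difference of cytosolic ribosomal protein genes was -1.20 without scaling and -1.12 to -0.91 with 1 library left out. Interaction genes numbered 8 without scaling, 171 without a filter and 35 by DESeq2. The cause was not tested.

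Among single genes and alternatives, 2356 values were alike, 145 moved, 30 gained a call, 54 lost one and 39 changed direction. All 39 belong to genes not called for the set difference in the comparison reported. Without scaling Rps24 was -0.18, Tug1 was -0.075, Calb1 was -0.18, Irx5 was -0.16 and Epcam was -0.10. With RLE scaling Rps24 was -0.0064 and Calb1 was -0.0018. With DESeq2 Rps24 was -0.0064, Calb1 was -0.0028 and Zfp979 was -0.49. With sex as a further term, chosen after seeing the data, Rps24 was -0.11, Pcp2 was 0.089, Trpm1 was 0.11 and Bhlhe23 was 0.10. With limma-voom Trpm1 was 0.24. With 1 library left out the values ranged from -0.18 to 0.22 for Rps24, -0.13 to 0.71 for Miat, -0.054 to 0.054 for Calb1, -0.54 to 0.27 for Pcp2, -1.56 to 0.87 for Trpm1, -0.052 to 0.11 for Irx5, -4.12 to 0.35 for Bhlhe23, -0.71 to 0.16 for S100b and -0.16 to 1.64 for Gja1. For the others they ranged from -2.96 to 0.017 for Hba-a1, -1.48 to 0.15 for Alas2, -0.65 to 0.51 for Krt12, -0.016 to 0.22 for Epcam, -8.60 to 6.36 for Zfp979, -4.07 to 6.28 for Zfp984 and -6.91 to 6.94 for Gm26809. Without control 2 or without cKO 3 one set holds 1 genotype, and the difference then rests on the other genotype.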
